A study of Xenopus tropicalis with 5 samples.

Results

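The mRNAs described here encode splicing factors and RNA helicases. They were taken from every listed 5-methylcytosine (m5C) site whose gene symbol begins with one of the family names ddx, dhx, srsf, srpk, clk, srrm, luc7, cherp, u2surp, sf1, sf3a, sf3b, u2af, snrn, snrp, prpf, cwc, hnrnp, rbm or thoc. In the 100 ng list these were 321 sites in 114 genes, of 18524 sites in 6458 genes. Over all lists together they were 406 sites in 126 genes, of 23009 sites in 6853 genes. In the choice of symbols a digit had to follow ddx, dhx, rbm and clk, and sf1 had to be the whole symbol. By the same rule the RefSeq gene table of the species (assembly UCB_Xtro_10.0) holds 184 symbols of these families. Among them are 126 of the 126 found here. The remaining symbols had no listed site, which is not a measurement of absent methylation.

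Splicing removes introns from the primary transcript. The U1 particle binds the start of the intron, SF1 and the U2AF proteins bind its branch site and its end, the SF3A and SF3B subunits of the U2 particle take over the branch site, and the tri-snRNP with the PRPF proteins completes the machine. DEAD-box and DEAH-box helicases use ATP to rearrange RNA and RNA-protein complexes in splicing, export, translation and ribosome assembly. The egg inherits stored mRNAs for such proteins, and enzymes of the NSUN family are known to write m5C in animal RNA.

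Sites were measured by RNA bisulfite sequencing, in which unmethylated C is read as T, of polyA RNA from wild-type Xenopus tropicalis early embryos at stage 0. The 5 libraries were labelled with inputs of 5 ng (1 library), 10 ng (1 library), 20 ng (1 library) and 100 ng (2 libraries, which the authors combined into 1 list). RNA came from pooled embryos, and the labels give the same stage and tissue for all 5 libraries, so by them only the input differed. The protocol in the labels names larger amounts than the lower inputs, so "input" stands for the labelled amount.

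The m5C level of a site is the percentage of its reads that stayed C. A site entered a list from 20 reads and from a level of 10%, and the fewest unconverted reads at a site were 5 in each lower list and 4 in the 100 ng list. A site can therefore be missing from a list because of its coverage, its level or the other filters of the authors' site calling. For replicated samples the paper describes a further demand that a site be present in both replicates. Whether the combined 100 ng list and the single lower libraries were thus filtered unequally was not tested. No input had a replicate spread, so the tests compared the reads of these lists and not inputs in general. Brackets after a level give its exact Clopper-Pearson interval at 95%, which covers counting error only because reads were not counted by molecular identifiers. Of 20 names of maternal marker genes, such as the egg transcripts vegt and mos, 15 had a listed site at 100 ng. Of 15 names of genes that switch on in the later embryo, 0 had one in any list. A marker without a listed site is no evidence that its RNA was absent. Positions are those of the deposited lists (X. tropicalis v9.1), and whether a site lies in coding sequence or in an untranslated region was not analysed here.

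Most sites of the splicing and helicase mRNAs were partly methylated, and a small number were methylated in nearly every read. At 100 ng the median level was 21.7% (19.2 to 24.6, from order statistics) beside 20.9% for all sites, and the quartiles were 13.3% and 37.2%. Levels below 20% were found at 148 sites (46.1%, all sites 47.3%), levels from 20% to 50% at 123 sites and levels from 50% to 80% at 31 sites. A level of 80% or more was found at 19 sites in 18 genes, 5.92% (3.60 to 9.09) of these sites beside 4.87% of all sites. The interval includes the value for all sites. The number of sites per gene with any site was 2.82 beside 2.87 over all genes, and 33 of the 114 genes (28.9%, all genes 35.1%) had a single site.

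**Figure D1:**
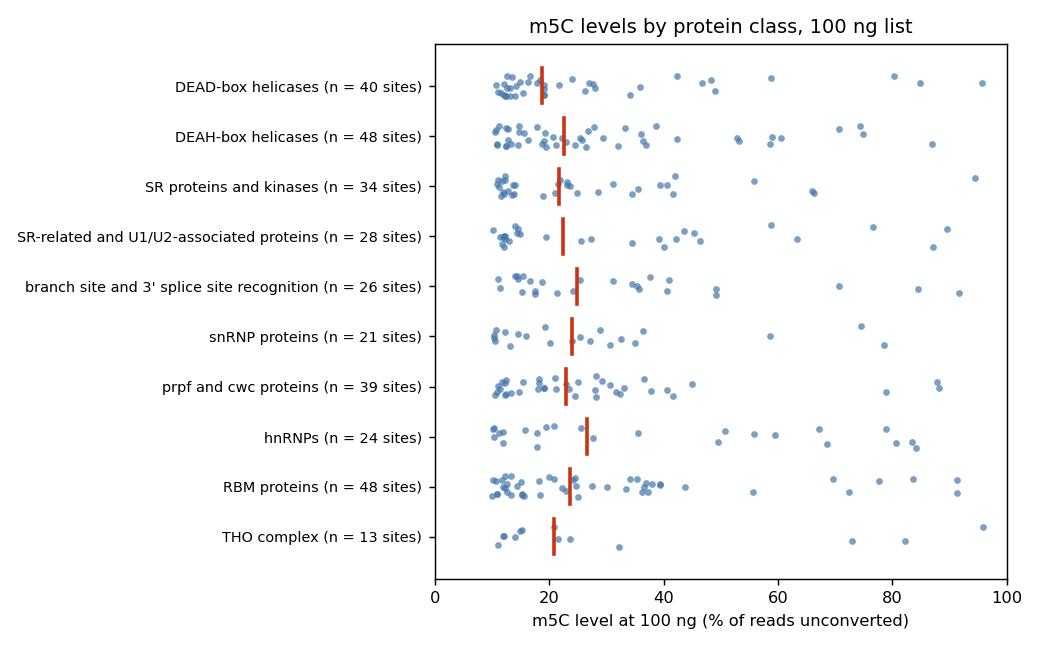
m5C level at 100 ng of each of the 321 sites (% of reads unconverted; each point is 1 site), by protein class, with the class median as a bar. The medians lie between 18.7% for DEAD-box helicases and 26.6% for hnRNPs, and the highest site of a class lies between 78.5% for snRNP proteins and 95.9% for the THO complex.

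Coverage of these sites was higher than that of the listed sites as a whole. The median at 100 ng was 412 reads beside 183 for all sites, and at 5, 10 and 20 ng it was 151.5, 149 and 160 reads beside 80, 80 and 83. This difference is given as a description, and neither it nor its cause was tested. The most deeply read site of each of the 4 lists lay in hnrnpab, an hnRNP that binds mRNA in nucleus and cytoplasm (chromosome 3, position 21896331, plus strand; singled out once its values were known). At 100 ng 55.7% (55.3 to 56.1) of 53103 reads were unconverted, and at 5, 10 and 20 ng 56.3%, 55.5% and 55.9% of 9144, 11106 and 12486 reads. All lists thus placed this site slightly above the midpoint of the scale, and the intervals of the lower lists overlap that of 100 ng.

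The sites methylated in nearly every read belonged to genes from different steps of RNA handling. The highest was in thoc1, a subunit of the THO complex that couples transcription to mRNA export (chromosome 6, position 93211592, plus strand). It was unconverted in 509 of 531 reads at 100 ng, a level of 95.9% (93.8 to 97.4), and in 97.1% of 171 reads, 92.5% of 147 reads and 97.5% of 158 reads at 5, 10 and 20 ng. A site in ddx5, a DEAD-box helicase that acts in splicing and transcription (scaffold 1412, position 9671, minus strand), followed with 7612 of 7951 reads, 95.7% (95.3 to 96.2). It stood at 95%, 94.8% and 94.5% at 5, 10 and 20 ng, from 2159, 1982 and 2329 reads. The intervals of both sites overlap, so their order at 100 ng was not resolved.

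Next came a site in srpk1, the kinase that phosphorylates SR proteins (chromosome 2, position 61457094, minus strand), with 94.5% (88.4 to 98.0) of 109 reads. Its levels at 5, 10 and 20 ng were 91.7%, 93.9% and 92.0%. The only listed site of sf3b5, a small SF3B subunit (chromosome 5, position 61537376, plus strand), had 91.6% (89.2 to 93.7) of 610 reads. These genes act at different points, the kinase on SR proteins and SF3B5 in the U2 particle. At the lower inputs the sf3b5 site gave 89.2%, 89.0% and 90.7%.

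A site in rbm15b, a relative of the m6A-writer partner RBM15 (chromosome 4, position 116905660, minus strand), had 91.2% (88.3 to 93.6) of 467 reads at 100 ng and 95.2%, 90.1% and 93.2% at the lower inputs. A site in rbm45, an RNA-binding protein (chromosome 9, position 59204287, minus strand), also had 91.2% (89.0 to 93.1) of 784 reads, and 87.4%, 89.2% and 90.2% at the lower inputs. The sites of srpk1, sf3b5, rbm15b and rbm45 could not be ordered, since their intervals at 100 ng overlap.

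The rest of the 10 highest sites, ranked over those that every list covered by 50 reads or more, were in prpf6 with 88.2% and 87.7%, luc7l with 87.0% and sf3b4 with 84.4%. PRPF6 bridges U5 with U4/U6 in the tri-snRNP, LUC7L is related to a yeast U1 protein, and SF3B4 contacts the RNA near the branch site. The luc7l site (chromosome 9, position 33436685, plus strand) had 1507 of 1732 reads unconverted at 100 ng, and 85.6%, 92.2% and 86.1% at 5, 10 and 20 ng. At the sf3b4 site (chromosome 8, position 107595637, minus strand) 2130 of 2523 reads were unconverted at 100 ng, and the lower inputs gave 81.0%, 86.9% and 80.9%. In both genes the lower inputs lay on either side of the 100 ng level. Of the 19 sites with 80% or more at 100 ng, 17 were in every list, with levels from 70.6% to 100% at the lower inputs. The other 2, in ddx1 and hnrnpa3, had 33 and 60 reads at 100 ng and were in no lower list. The same overlap was not counted over all genes, where 902 sites had 80% or more. Their median coverage was 185 reads, beside 513 for the 19 sites here.

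**Figure D2:**
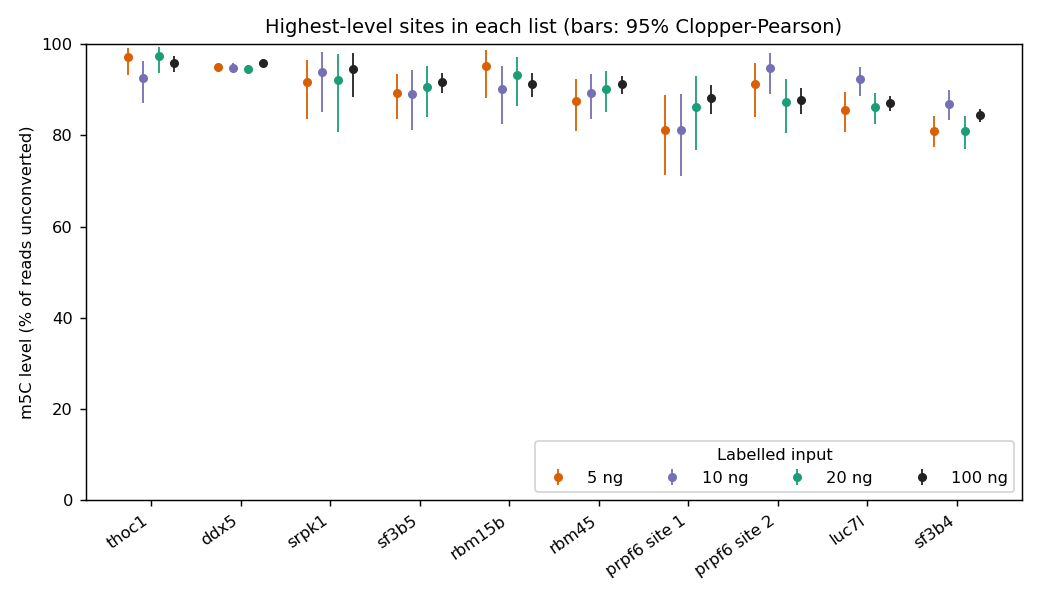
m5C level (% of reads unconverted) of the 10 sites that were highest at 100 ng and had 50 reads or more throughout, in the 4 lists (colours), with 95% Clopper-Pearson intervals as bars. The levels at 100 ng run from 84.4% in sf3b4 to 95.9% in thoc1, and the lowest value in any list is 80.9%, in sf3b4 at 20 ng.

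Among the DEAD-box helicases, 18 of 34 RefSeq symbols held 40 sites at 100 ng, with a median of 18.7% (14.2 to 26.2) and 4 sites at 50% or more. ddx3x, which helps the translation of structured mRNAs, had the most sites of the class, 6, with levels from 10.7% to 28.0%. Its deepest site (chromosome 2, position 69944355, minus strand) was unconverted in 5370 of 19211 reads at 100 ng, 28.0% (27.3 to 28.6), and in 30.9%, 28.1% and 29.1% of reads at 5, 10 and 20 ng. This site was therefore partly methylated in every list. In ddx5 the mRNA with the site at 95.7% also carried sites of 19.2% of 5451 reads and 12.3% of 18471 reads. Helicases of germ cells, singled out after their values were seen, were listed as well, with ddx25 at 80.3% of 885 reads and 46.8% of 156 reads, and ddx4, the vasa gene, at 35.9% of 117 reads and 16.7% of 96 reads.

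DEAH-box helicases had 48 sites in 12 of 16 genes, 4 sites per gene, with a median of 22.6% (17.9 to 29.5). dhx29, which helps the scanning ribosome through structured leaders, had 9 sites between 11.2% and 58.5%, none with more than 286 reads. dhx30, a helicase of mitochondrial ribosome assembly in mammals, had 7, of which the highest (chromosome 6, position 5270147, minus strand) had 74.9% (71.7 to 77.9) of 785 reads, and 70.4%, 74.2% and 77.9% at the lower inputs. dhx9, RNA helicase A, had 6 sites at 100 ng, from 10.8% to 27.7%. These genes with many sites thus differed in their highest level. The highest site of the class was in dhx32 (chromosome 7, position 16716815, plus strand), with 126 of 145 reads, 86.9% (80.3 to 91.9). At 5, 10 and 20 ng it had 40 of 42, 24 of 24 and 38 of 48 reads unconverted, levels of 95.2%, 100% and 79.2%, from fewer reads than the 50 needed for a test.

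By role, 13 of 15 named helicases of splicing and export had a site at 100 ng, 37 sites in all, whose median level was 18.7% (14.5 to 25.3) at a median of 295 reads. Of 16 names of helicases of ribosome biogenesis 7 had a site, 17 sites in all. Their median level was 23.0% (15.4 to 36.8) at a median of 56 reads. Of 13 names of helicases of cytoplasmic mRNA and germ cells 8 had a site, 32 sites in all. Their median level was 25.4% (14.6 to 36.1) at a median of 271.5 reads. The names were not checked against the genes of the species, so these counts are not shares of its helicases. The intervals of the levels overlap. The ribosome biogenesis group had 6, 7 and 8 sites listed at 5, 10 and 20 ng. Of 6 names of helicases known for antiviral sensing, dhx9, dhx33 and dhx36 had sites, and these 3 are also counted in the other roles.

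SR proteins bind exonic enhancers and recruit the splicing machinery, and SRPK and CLK kinases phosphorylate them. This class had 34 sites in 12 of 18 genes, with a median of 21.7% (13.5 to 31.1). srsf6 had the most, 8 sites, and 5 of these lay close together (chromosome 10, positions 31470974 to 31471110, plus strand). Along that stretch the levels at 100 ng were 23.6%, 41.7%, 55.8%, 12.7% and 34.4%, from 1906, 1875, 1442, 1446 and 1076 reads. Levels in 1 short stretch of srsf6 thus went up and down by more than their counting error. srsf1, the founding SR protein, was read 41108 and 41089 times at a pair of adjacent cytosines (chromosome 2, positions 50292307 and 50292308, plus strand), with levels of 11% and 11.9%. At the lower inputs these stayed between 10.5% and 12.5%, close to the listing minimum. srsf9 had 39.3% (38.5 to 40.1) of 14536 reads (chromosome 1, position 143183441, minus strand), and 39.3%, 38.7% and 39.2% at 5, 10 and 20 ng.

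SR-related and U1- or U2-associated proteins had 28 sites in 7 of 9 genes and a median of 22.5% (12.9 to 42.1). srrm2, a large scaffold protein of nuclear speckles, had 13 sites at 100 ng, more than any other gene of the families. Its highest (chromosome 9, position 6953546, plus strand) had 89.5% (85.1 to 93.0) of 258 reads, and 95.3%, 84.4% and 86.6% at 5, 10 and 20 ng, while 9 of the 13 were below 20%. The gene was read shallowly, with 34 to 259 reads a site at 100 ng, and 8, 7 and 8 sites were listed at the lower inputs. Of the 28 sites of this class, 9 (32.1%, 15.9 to 52.4) were in every list, and the interval includes the 46.3% found for all 18524 sites at 100 ng. The share was 50% of the 40 sites of DEAD-box helicases, 82.4% of those of SR proteins and kinases and 63.2% of all 321. Median coverage at 100 ng was 138 reads for the SR-related class, 146.5 for DEAD-box helicases and 1219 for SR proteins and kinases. The part of coverage in these shares was not tested.

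Proteins that recognise the branch site and the end of the intron had 26 sites in 11 of 12 genes, with a median of 24.8% (16.7 to 37.7), and 84.6% (65.1 to 95.6) of their sites were in every list, beside 46.3% of all sites, at a median coverage of 865.5 reads beside 183. sf3b1, the largest SF3B subunit, had the most, 5 sites, with levels of 16.7%, 21.4%, 49.1%, 15.2% and 11.1% along the gene. The site at 49.1% (46.3 to 51.9; chromosome 9, position 37551256, minus strand) gave 50%, 46.9% and 47.7% at 5, 10 and 20 ng. In sf3b3, another SF3B subunit, singled out after its values were seen, adjacent cytosines had very different levels (chromosome 4, positions 27032596 and 27032597, plus strand). The first had 18.8% (13.8 to 24.6) of 218 reads and the second 70.7% (64.0 to 76.8) of 208 reads at 100 ng. The contrast was present in each lower list, with 11.3% and 74.4% at 5 ng, 14.1% and 66.2% at 10 ng, and 14% and 70.9% at 20 ng.

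snRNP proteins are parts of the spliceosomal particles. They had 21 sites in 9 of 18 genes, a median of 24.0% (13.1 to 32.6) and a median coverage of 2337 reads, the highest of the 10 classes. snrnp70, which binds the U1 RNA, had 5 sites, with 36.4% of 14834 reads, 28.9% of 10356 reads and 10.8% of 9896 reads at the deepest and 74.5% of 3212 reads at the highest. snrpg, a protein of the Sm ring, held the highest site of the class (chromosome 3, position 112120225, plus strand), with 78.5% (77.1 to 80) of 3136 reads, and 81.2%, 79.2% and 79.2% at 5, 10 and 20 ng. A cytosine 8 nt further on had only 15.9% (14.6 to 17.2) of 3061 reads, so these close neighbours differed by far more than their counting error.

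The prpf and cwc proteins of the tri-snRNP and the activated spliceosome had 39 sites in 11 of 18 genes, with a median of 22.9% (18.0 to 29.3). prpf6 had 9 sites, and between those with 87.7% (scaffold 986, position 6572, plus strand) and 88.2% (position 7183) lay sites of 12.2% and 23.4%. The site at position 7183 gave 81.2%, 81.2% and 86.2% at 5, 10 and 20 ng, and the site at position 6572 gave 91.3%, 94.8% and 87.3%. Neither of them was called in a comparison with 100 ng. prpf4, a protein of U4/U6, had 6 sites, all between 11.1% and 28.0%, from 960 to 2305 reads each.

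hnRNPs coat nascent transcripts and often act against SR proteins. They had 24 sites in 11 of 18 genes and a median of 26.6%, with the wide interval of 15.8 to 59.5. At 100 ng, 9 of the 24 sites (37.5%) had a level of 50% or more, beside 16.2% of all sites and 15.6% of the 321. The hnRNP share was 28.6%, 31.6% and 38.1% at 5, 10 and 20 ng, and the difference was not tested. At 100 ng this was the highest share of the 10 classes, pointed out with the values known. At 10 ng the SR-related and U1- or U2-associated proteins had a higher share, 38.5% of 13 sites. The 9 include adjacent cytosines of hnrnpa3 with 57 and 60 reads, and no hnrnpa3 site of 50% or more was in a lower list. hnrnpa0 had 84.1% (83.3 to 84.9) of 9099 reads at one site (chromosome 3, position 21935353, minus strand) and 35.4% (35 to 35.9) of 47070 reads at another (position 21935479). The first gave 86.2%, 85.1% and 82% at 5, 10 and 20 ng, and the second 35%, 35.3% and 35%. These cytosines of 1 mRNA kept their order in every list. hnrnpc, which binds uridine tracts, had 3 sites, with 68.6% of 8523 reads, 20.8% of 4958 reads and 10.3% of 14210 reads. hnrnph3, which binds G-rich RNA, had a single site, with 17.8% (17.1 to 18.4) of 13300 reads, and 15.8%, 18.2% and 16.8% at the lower inputs.

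RBM proteins, a mixed group that share an RNA recognition motif, had 48 sites in 18 of 35 genes, with a median of 23.6% (15.3 to 34.0). rbm15b had 8 sites, from 15.2% to 91.2%. Its second highest (chromosome 4, position 116906284, minus strand) had 72.4% (69.2 to 75.5) of 805 reads, and 63.5%, 75% and 79.6% at 5, 10 and 20 ng. In the THO complex, 5 of 6 genes had 13 sites, with a median of 20.8% and a wide interval of 12.1 to 73.0. thoc2, its largest subunit, had 7 of these sites. The highest (chromosome 8, position 27614093, minus strand) had 73.0% (67.8 to 77.8) of 326 reads, and 69.4%, 66.3% and 66.4% at the lower inputs, while the other 6 lay between 11% and 23.6%.

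Sites of 1 gene often differed widely. Among the 81 genes with at least 2 sites at 100 ng, the highest and the lowest level lay a median of 29.6 points apart (23.5 to 43.2), beside 29.8 points over all 4189 such genes. In 29 of the 81 (35.8%, all genes 36.6%) a site of at least 50% stood beside one below 20%, and in 14 all sites lay within 10 points. Added over the sites of a gene, the levels came to 1 or more in 39 of 114 genes (34.2%, all genes 29.8%), which corresponds to a mean of at least 1 m5C per mRNA if the reads at all sites come from the same mRNAs. The sums were 3.59 for srrm2, 3.34 for prpf6 and 3.34 for rbm15b. At 5, 10 and 20 ng they were 2.57, 2.64 and 2.49 for srrm2, which had fewer listed sites there, and 3.21, 3.55 and 3.55 for rbm15b.

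**Figure D3:**
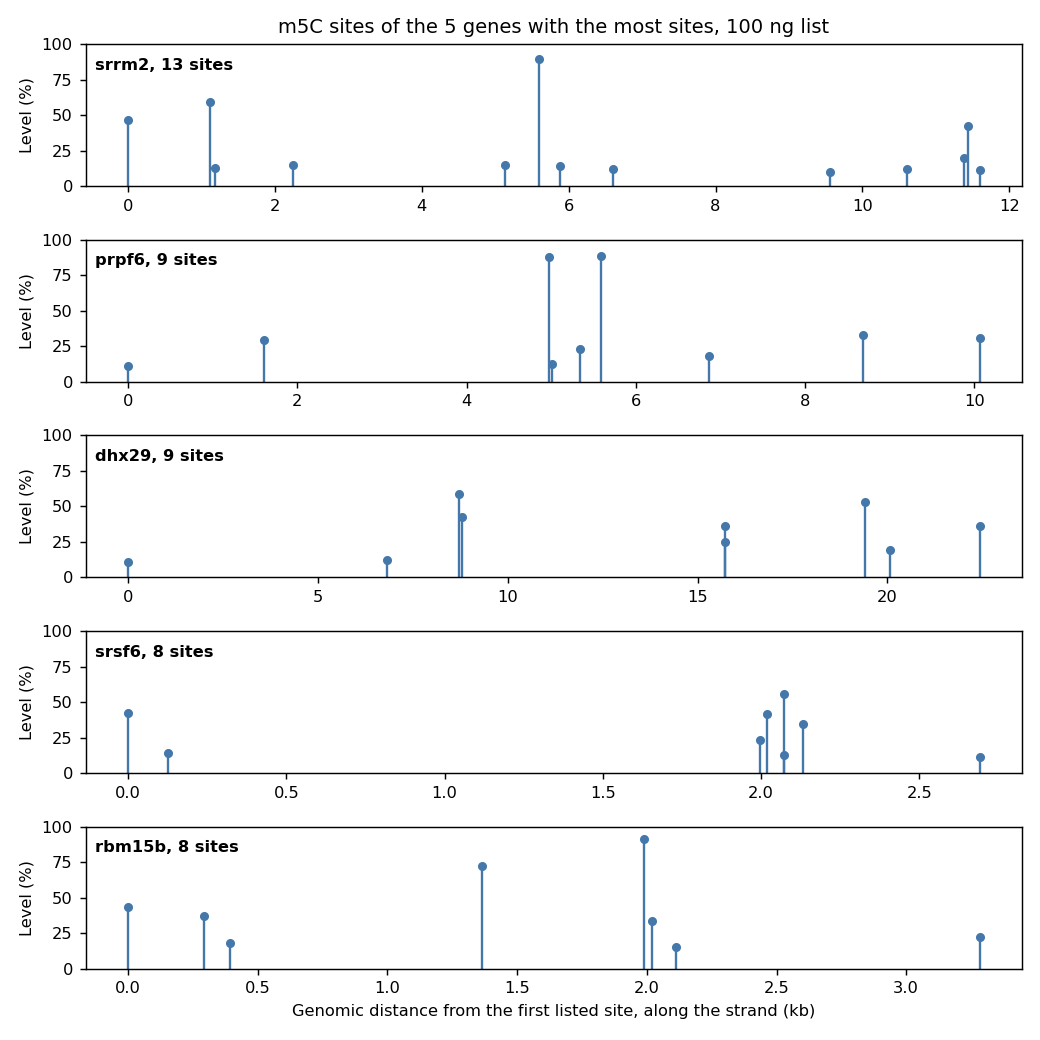
m5C level at 100 ng (%) of each listed site of srrm2, prpf6, dhx29, srsf6 and rbm15b, the 5 genes with the most sites, against genomic distance along the gene (introns included). The highest sites have 89.5% in srrm2, 88.2% in prpf6 and 91.2% in rbm15b and stand among sites below 20%, while the highest have 55.8% in srsf6 and 58.5% in dhx29.

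Of the 321 sites, 28 (8.72%) in 13 genes lay within 30 nt of another listed site, beside 10.9% of all sites. Of these 14 pairs, 7 were adjacent cytosines, in cwc22, prpf4, dhx29, srsf1, hnrnpa3, sf3b3 and srsf6. In some pairs both cytosines had like levels, as in prpf4 with 21.0% of 1488 reads and 22.9% of 1547 reads, and in srsf1. In others they did not, as in sf3b3 and in srsf6, where position 31471050 had 55.8% (53.2 to 58.4) and position 31471051 had 12.7% (11 to 14.6). The srsf6 contrast was also present at 5 ng with 56.5% and 13.2%, at 10 ng with 56.7% and 14.7%, and at 20 ng with 50.4% and 13.9%.

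The paper used the lower inputs to see how reproducible methylation levels were with less RNA. Which sites were listed again was compared here in addition. The lower inputs listed 268, 269 and 269 sites of these families at 5, 10 and 20 ng, in 101, 104 and 102 genes. Of the 321 sites at 100 ng, 73.8% (68.7 to 78.6) were listed again at 5 ng, 71.0% (65.7 to 75.9) at 10 ng and 72.3% (67.0 to 77.1) at 20 ng, beside 60.2%, 56.9% and 61.3% of all sites. Within each of 5 classes of coverage at 100 ng, the interval for the splicing and helicase sites included the value for all sites in each lower list. At 100 reads or more and below 250, for example, 73.8%, 70.8% and 76.9% were found again at 5, 10 and 20 ng beside 65.0%, 61.4% and 69.0% of all sites, and with 1000 reads or more 95.4%, 93.6% and 90.8% beside 92.3%, 93.7% and 93.9%.

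**Figure D4:**
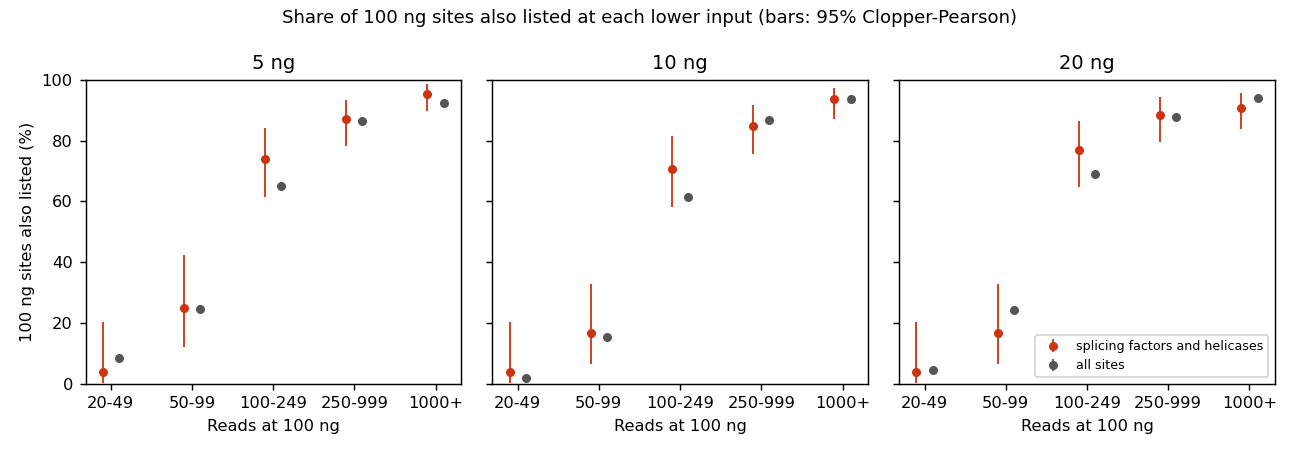
Share of the 100 ng sites (%) that were also listed at 5, 10 or 20 ng, by coverage at 100 ng, for splicing and helicase sites with 95% Clopper-Pearson intervals and for all sites. The share of splicing and helicase sites rises with coverage, from 4% at 20 to 49 reads to 95.4%, 93.6% and 90.8% at 1000 reads or more. Over all sites it rises from 8.57%, 2.06% and 4.51% to 92.3%, 93.7% and 93.9%.

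Of the 406 sites over all lists, 203 (50%) were in every list, beside 37.3% of all 23009 sites. Their level at 100 ng had a median of 28.0%, and their median coverage was 860 reads. A further 61 sites (15.0%, all sites 22%) were listed at 100 ng alone, at a median level of 14.7% and a median of 61 reads. The other one-sided group were 85 sites (20.9%, all sites 19.5%) listed at lower inputs but not at 100 ng. Of these 85, 64 were in exactly 1 lower list, beside 3531 of 4485 over all sites. Among the 85, 78 had a highest level below 20% and none exceeded 30%. These levels were not counted over all sites.

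By gene, 96, 95 and 96 of the 114 genes at 100 ng had a site at 5, 10 and 20 ng (84.2%, 83.3% and 84.2%, all genes 72.2%, 70.4% and 74.0%), and 11 (9.65%, all genes 18.3%) had none in any lower list. These 11 were ddx10, ddx18, ddx24, ddx31, ddx49, dhx16, dhx34, dhx36, rbm34, rbm44 and srsf5, with 18 sites of 37 to 79 reads at 100 ng. Conversely, 12 of the 126 genes (9.52%, all genes 5.76%) were listed only at lower inputs, a difference that was not tested, among them u2af1, which recognises the end of the intron, prpf31, a U4/U6 protein, and hnrnpl, a CA-repeat binder. hnrnpl (position 59429656) and rbm24 (position 48602559), an RNA-binding protein of muscle, were in all 3 lower lists, the former with 19.4%, 25% and 14.3% and the latter with 12%, 21.7% and 11.5% at 5, 10 and 20 ng. The levels at 100 ng for these sites were not in the list and cannot be compared.

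Levels of the shared sites differed little between inputs, among sites that reached the 10% minimum in every list compared. A site that fell below this minimum in a list is left out here and in the comparisons below, which favours agreement. Over the 166 sites in 75 genes that had 50 reads or more throughout, the median was 25.8% at 5 ng, 24.8% at 10 ng, 24.4% at 20 ng and 25.9% at 100 ng. Across the 3 lower lists the level of a site ranged over at most 10 points at 150 of the 166 sites (90.4%, all sites 81.7%), with a median range of 3.94 points beside 5.24 for all sites. The median coverage of these sites was 273.5, 279.5 and 309 reads beside 164, 151 and 175 for all sites, and its part in the smaller range was not tested.

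Each site was then compared with its level at 100 ng on its C and T reads (Fisher's exact test, two-sided). P-values were adjusted by the Benjamini-Hochberg method over the sites of all genes that had 50 reads or more in both lists. The 4 comparisons share the 100 ng list and are not independent. At 5 ng 0 of 198 sites were called at an adjusted p below 0.05, where the background over all sites was 0.278%, and 25 (12.6%, all sites 8.75%) had an unadjusted p below 0.05. At 10 ng it was 0 of 184 (background 0.0406%), with 18 (9.78%, all sites 8.61%) at an unadjusted p below 0.05. At 20 ng 1 of 198 sites was called (background 0.15%) and 14 (7.07%, all sites 7.4%) had an unadjusted p below 0.05. With the lower lists summed 2 of 203 were called (background 0.327%) and 27 (13.3%, all sites 9.35%) had an unadjusted p below 0.05. With 1 or 2 sites called, these shares cannot be set apart from the background. A variant of the test that widened the binomial variance by a factor of 1.42, estimated between the lower lists, called 0 sites at 5, 10 and 20 ng each (backgrounds of 0.0252%, 0% and 0.0125%) and 1 in the sum (background 0.0701%). With this variant 6.57%, 4.89% and 4.55% of the sites had an unadjusted p below 0.05 at 5, 10 and 20 ng. All sites gave 4.82%, 4.92% and 3.77%. In the sum it was 8.37%, beside 5.41% of all sites. The splicing and helicase sites were read more deeply, and the part of coverage in the unadjusted shares was not tested. The factor was estimated on sites with a level of at least 30% and applied to all tested sites. It was 1 value for every coverage, and whether it is wide enough for deeply read sites was not tested. The lower lists differ in input, so it is not a replicate variance.

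The mean difference of these sites from 100 ng was -0.64 points (-1.26 to -0.0218) at 5 ng, -0.40 points (-0.967 to 0.166) at 10 ng and -0.33 points (-0.902 to 0.235) at 20 ng, beside -0.41, -0.0087 and -0.0523 points for all sites. With the lower lists summed it was -0.62 points (-1.13 to -0.103), beside -0.21 for all sites. The median difference was -0.11 points (-0.501 to 0.326) at 5 ng, -0.27 (-0.641 to 0.0735) at 10 ng and -0.38 (-0.849 to 0.154) at 20 ng. Each of these intervals includes 0. With the lower lists summed the median was -0.40 points (-0.858 to -0.0329), which excludes 0, beside -0.13 for all sites. The 5 ng mean was -0.33 points with at least 20 reads in both lists and -1.0 with 1 mean per gene, and the 10 ng mean was -0.20 with at least 20 reads. These intervals were taken over sites, several of which share a gene and none of which is a replicate. Differences of 10 points or less were found at 93.9%, 97.3% and 98.0% of the sites, beside 93.9%, 94.3% and 95% of all sites. Pearson's r between a list and the 100 ng list was 0.981 over 198 sites, 0.986 over 184 sites and 0.985 over 198 sites. For all sites it was 0.973, 0.974 and 0.976. It was taken over sites that share libraries and genes and are no replicates. The splicing and helicase sites were read more deeply, and the part of coverage in r and in these shares was not tested.

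The called sites were both in mRNAs of U1 proteins. In snrpc, which encodes the U1-C protein that stabilises pairing of U1 with the start of the intron (chromosome 2, position 60781797, minus strand), 2598 of 4430 reads were unconverted at 100 ng, 58.6% (57.2 to 60.1). The 5 ng list had 953 unconverted of 1731, or 55.1% (52.7 to 57.4). The 10 ng list had 730 of 1376, or 53.1% (50.4 to 55.7), and the 20 ng list 800 of 1538, or 52.0% (49.5 to 54.5). The 3 lower lists lay below 100 ng by 3.59, 5.59 and 6.63 points. They share the 100 ng value and the site was chosen by these tests, so their common direction is no further support. The adjusted p of Fisher's exact test with Benjamini-Hochberg adjustment was 0.38, 0.0893 and 0.00972. Summed, the lower lists gave 53.5% (52.0 to 54.9) of 4645 reads with an adjusted p of 0.000946, and 0.0418 with the widened variance. The widening did not depend on coverage, so the value of 0.0418 may be too small at this depth, which was not tested. At 20 ng the adjusted p was 0.204 with the widened variance.

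In snrnp70 (chromosome 7, position 105786768, plus strand) the difference went the other way. Of 3212 reads at 100 ng 2392 were unconverted, 74.5% (72.9 to 76.0), against 77.3% of 494 reads, 80.8% of 511 reads and 80.4% of 658 reads at 5, 10 and 20 ng. The 3 lower lists lay above the 100 ng value they share, at a site chosen by these tests, so this direction is no further support. No single list was called, with adjusted p-values of Fisher's exact test of 0.802, 0.202 and 0.295. The summed lower lists gave 79.6% (77.6 to 81.5) of 1663 reads, with an adjusted p of 0.0224 by Fisher's exact test and of 0.293 with the widened variance. The U1-A mRNA snrpa, looked at after these values were seen, had 19.3% of 5618 reads at 100 ng and 20.4%, 19.9% and 17.8% at 5, 10 and 20 ng (chromosome 8, position 57320805, plus strand), and was not called.

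The 5 sites named next had the largest mean differences among those with 50 reads or more throughout and with 1 direction in all 3 lower lists. That direction was a condition of their choice and the lists share the 100 ng sample, so it is no support for a difference, and none of the 5 was called. In rbm15b a site (chromosome 4, position 116907648, minus strand) had 43.7% of 538 reads at 100 ng, and 28.8%, 33.3% and 34.6% of 59, 69 and 78 reads at 5, 10 and 20 ng, a mean difference of -11.4 points. The adjusted p of the summed lists by Fisher's exact test was 0.278. srpk3, an SR protein kinase of muscle in mammals, had 66.0% at 100 ng and 52.1%, 59.6% and 57.7% at the lower inputs (chromosome 3, position 67627163). ddx41, a helicase of the activated spliceosome, had 58.7% at 100 ng and 48.0%, 49.4% and 52.0% (chromosome 3, position 36584816). Their summed adjusted p-values by Fisher's exact test were 0.346 and 0.512.

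A site of dhx30 (chromosome 6, position 5271717) was higher at the lower inputs, with 36.4%, 46.3% and 35.8% against 32.0% at 100 ng, and a ddx3x site (chromosome 2, position 69934988) was lower, with 20.9%, 14.2% and 21.2% against 26.2%. The summed adjusted p-values of dhx30 and ddx3x by Fisher's exact test were 0.311 and 0.2. Sites with fewer than 50 reads in some list, looked at after their values were seen, reached similar or larger differences. These were in dhx29 (position 178761136), with 35%, 30% and 18.8% at 5, 10 and 20 ng against 42.4% at 100 ng, in srpk1 (position 61451916), with 31.9%, 34.8% and 34.1% against 22%, and in srsf11, an SR-related protein (position 80772222), with 21.9%, 28.9% and 21.9% against 13.9%. Their summed adjusted p-values by Fisher's exact test were 0.162, 0.597 and 0.388. The mRNA of rbm39, a U2AF-related splicing factor singled out after its values were seen, had a site with 69.5% of 394 reads at 100 ng, and 49.5%, 72.7% and 80% of 103, 88 and 90 reads at 5, 10 and 20 ng (chromosome 10, position 34300863, minus strand). The lower lists of rbm39 fell on both sides of 100 ng, and the adjusted p at 5 ng was 0.0609 by Fisher's exact test, or 0.0442 when only sites with at least 100 reads in both lists were adjusted for.

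**Figure D5:**
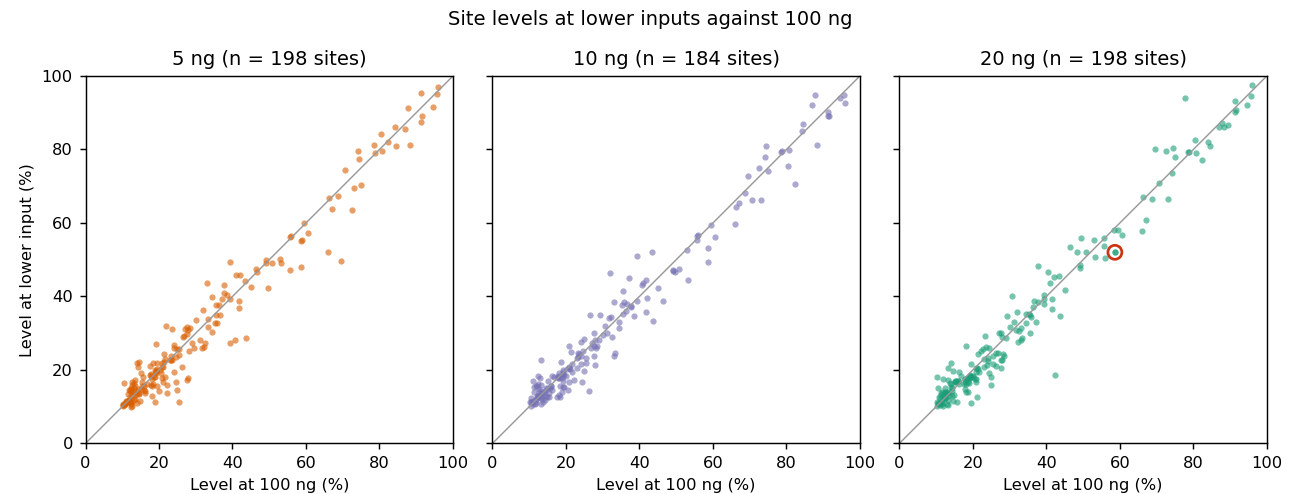
m5C level (%) at 5, 10 and 20 ng against the level at 100 ng for sites that had 50 reads or more in both lists (198, 184 and 198 points). The points lie along the diagonal, and the ring in the 20 ng panel marks snrpc, the only site called in a single list, with 58.6% at 100 ng and 52.0% at 20 ng.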

How the data were processed

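Per the study's methods and the submitters' processing notes (bcl2fastq 2.17, cutadapt, Trimmomatic, HISAT2 2.10, SAMtools), the authors trimmed reads and mapped them to the converted X. tropicalis genome (v9.1) and then, with Bowtie2, to the transcriptome. They removed reads with more than a few unconverted C, dropped conversion-resistant genes and tested each site against its gene's conversion rate. The deposited lists give a coverage count per site (reads with C or T), the m5C level as a fraction, and the p-value of the site call by the authors, which was not used here. The 100 ng list combines 2 libraries. The base (0 or 1) of positions is not given in the sources used here.

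Unconverted reads were coverage times level, which gave whole numbers within 2.6e-05 reads. Sites were joined by chromosome, position and strand. Levels were given 95% Clopper-Pearson intervals, and medians order-statistic intervals. Fisher's exact test (two-sided, Benjamini-Hochberg over all sites with at least 50 reads in both lists) was run on simulated reads with binomial spread only. The lower lists varied more than that, by a factor of 1.42, so the simulation does not cover the calls on these data. Python 3.11.15, pandas 2.3.3, numpy 2.4.6, SciPy 1.17.1 and matplotlib 3.10.9 were used. Named were the 10 genes with the most sites, the 10 highest sites (50 reads or more throughout), the called sites, the 5 largest mean differences of 1 direction in all 3 lower lists (50 reads or more throughout), the leading genes of each of 10 classes, and the 5 genes of highest median coverage. Further genes are marked in the text. Members and lists were chosen with earlier results of these data known. Other level and coverage minimums, a value per gene, and a widened variance were tried. Sequences and genic locations were not analysed here. No column belonged to another sample.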

Additional observations from a re-analysis of the deposited data

How the results depend on the processing

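Of 54 alternative values, 35 stayed within the margin set by the spread or by a factor of 1.5, and 19 moved. Only the mean differences from 100 ng could reverse in sign, and none of them did. With a minimum level of 20%, 144, 145, 141 and 173 sites were listed at 5, 10, 20 and 100 ng, since fewer sites could enter. Over all sites of a list in place of the shared ones, the 5, 20 and 100 ng medians were 21.8%, 20.7% and 21.7%. The share of 100 ng sites found again at 5, 10 and 20 ng was 85.0%, 83.2% and 84.4% for sites with a level of at least 20%, 79.7%, 76.7% and 78.0% for at least 50 reads, and 91.8%, 89.7% and 89.7% for at least 250 reads. At 5 ng, 1 site (rbm39) in place of 0 was called with at least 100 reads in both lists. With the widened variance, 0 in place of 1 was called at 20 ng and 1 in place of 2 in the summed lists.

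No paired analysis was possible because each lower input had 1 library and the 100 ng libraries were combined in 1 list, and for the same reason no library could be left out. Of the 25 sites with 20 to 49 reads at 100 ng, 1 (4%) was found again at each lower input. Over all sites it was 8.57%, 2.06% and 4.51% at 5, 10 and 20 ng. Splicing and helicase sites not found again also had lower levels, with medians of 14.2% to 14.3% beside 24.9% to 25.5% for those found. Over all sites these medians were 16.2% to 16.9% and 24.7% to 24.9%. The parts of depth and level were not tested.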

Other observations

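Genes of the spliceosome and of mRNA processing outside these families, from a list of 93 names such as eftud2, cdc5l and slu7, were described alongside. Of the 93 names, 51 had a site at 100 ng, 133 sites in all, with a median level of 20.5% (16.6 to 26.0) and a median coverage of 526 reads, beside 20.9% and 183 reads for all sites. At 5, 10 and 20 ng, 48, 45 and 46 of them had a site, with median levels of 22.9%, 22.9% and 21.2%. By Fisher's exact test with Benjamini-Hochberg adjustment over all sites, 0 of 81, 0 of 79 and 0 of 80 of their sites were called against 100 ng, and 0 of 75 with the lower lists summed. The backgrounds over all sites were 0.278%, 0.0406%, 0.15% and 0.327%, so these counts are near them.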
